A study of Mus musculus with 3 samples.

Results

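Constant intragenic distal peaks are sites of open chromatin inside protein-coding genes, away from both gene ends, that were called in all 3 ATAC-seq libraries of the study. They were chosen by measured values, the calls in all 3 libraries and the pileup in control cells at day 1, from whose peaks they were taken. A peak had to lie on an autosome, carry a summit pileup of at least 1 FPM (fragments over the summit per 1000000 fragments of the library), and overlap by at least 1 bp a peak of each other library. Its summit had to fall inside a RefSeq protein-coding gene, the peak had to lie more than 1000 bp from any end of such a gene, and the 1000 longest peaks were left out. Of 118441 peaks in control cells at day 1, 114917 were autosomal, 37434 reached the pileup minimum and 26675 of those were constant, that is, overlapped in both other libraries. After 971 constant peaks among the longest were removed, 9205 intragenic distal peaks remained, 7.77% of all peaks of that library and 34.5% of the constant ones. The remaining constant peaks were 9521 gene-end peaks, within 1000 bp of a gene end, 4856 intergenic peaks within 100 kb of a gene and 2122 beyond that distance. The weakest chosen peaks had a pileup of 19 fragments (1.04 FPM), and the strongest peaks left out by the minimum had 18 (0.986 FPM). The chosen peaks began at 1001 bp from a gene end, and their longest was 1182 bp, the length of the shortest peak left out for length.

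In ATAC-seq a transposase inserts adapters into accessible DNA, and pileup is the number of sequenced fragments that cover a base. The series compared mouse oligodendrocyte lineage cells with and without Seh1, a subunit of the nuclear pore complex encoded by Seh1l, under a title that also names the lineage transcription factor Olig2 and the chromatin remodelling subunit Brd7. The 3 groups held 1 library each: Seh1cKO cells after 1 day of triiodothyronine (T3, 60 nM), control cells labelled wild type after the same day of T3, and control progenitors at day 0, whose sample title ends in the letters DO, read here as day 0. All cells came from C57BL/6 pups of postnatal day 4 to 7, were immunopanned from cortex on anti-GalC and then anti-O4 plates, and were grown with PDGF-AA, CNTF, bFGF and NT3. For the day of T3, PDGF-AA, bFGF and NT3 were withdrawn. Each library was made from 50000 cells. The sources used here do not give the Cre driver, the deleted part of Seh1l or the number of animals behind a library.

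Depth differed: 10845533 fragments gave 46113 peaks in Seh1cKO cells, 18260883 gave 118441 in control cells at day 1, and 23403600 gave 108788 at day 0. The lowest pileup called was 6 fragments in Seh1cKO cells (0.553 FPM), 8 in control cells at day 1 and 9 at day 0. No test between groups is possible with 1 library in each, and every difference given here lacks replicates. At Seh1l a peak over its lower-coordinate end had 4.33 FPM in Seh1cKO cells, 3.83 in control cells at day 1 and 3.29 at day 0, which does not check the knockout. Of 32 progenitor marker genes 29 had a constant gene-end peak, against 17 of 38 myelin, 13 of 20 astrocyte, 12 of 24 neuronal, 5 of 21 microglial and 5 of 23 endothelial and mural markers, 23 of 24 housekeeping genes and 56.6% of all genes considered. In a bulk library, fewer open cells and less signal per open cell cannot be told apart.

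Open chromatin inside a gene, away from its ends, is commonly of a few kinds: enhancers that act on the host gene or on a neighbour, start sites of shorter transcripts of the host, and binding sites of structural proteins. In oligodendrocyte progenitors, enhancers of lineage genes are bound by factors such as Olig2 and Sox10, and thyroid hormone acting through its nuclear receptors starts the switch from proliferation to differentiation. Promoters are often rich in G and C with many unmethylated CpG dinucleotides and tend to be open in many cell types, whereas enhancers are more often open in a few.

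The constant intragenic distal peaks were split by the transcript starts that RefSeq (GRCm38.p6, whose main chromosomes have mm10 coordinates) places inside genes. Of the 9205 peaks 941 (10.2%) overlapped the window of a start of a protein-coding transcript, 250 bases before to 50 after the start, and are called internal-start peaks. Windows were at hand for 79.9% of protein-coding genes, so some starts are missing from this split. Another 104 overlapped the start of a long noncoding RNA, 7832 (85.1%) overlapped no annotated start, and 328 could not be placed because no start windows were used for their chromosome. Looked at from the windows, 1070 of 3708 internal start windows (28.9%), in 888 genes, were overlapped by constant intragenic distal peaks. The windows with such a peak had a median GC content of 62.0% and 21 CpG. The 2037 internal windows with no peak in control cells at day 1 had 50.3% and 4 CpG. The 16355 windows at gene ends, taken with or without a peak, had 57.3% and 15 CpG. The GC box GGGCGG stood in 62.4% of the internal windows with such a peak, against 20.4% and 48.9% of the same comparison windows. CCAAT was found in 36.2%, against 34.1% and 38.9%, and TATAAA in 5.98%, against 14.5% and 13.1%. The SOX-type motif ACAAAG was found in 14.0%, against 22.1% and 16.1%, and the E-box CAGATG in 10.7%, against 18.9% and 14.3%. Both strands were searched, a match is only a run of letters, and longer motifs were not looked for. Open gene-end starts were not set apart, so open internal starts cannot be ranked against them.

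Windows of 300 bases from 6 genes are examples of these internal starts and differ in how their peaks compared between libraries. They are not typical in that comparison: all 6 peaks had less signal per unit depth in Seh1cKO cells than in control cells at day 1. Of all internal-start peaks 45.5% had more in Seh1cKO cells, and only 2.34% were at least 2-fold lower. Lower case is the RefSeq reference, 5′ to 3′ on the strand of the gene, and capitals mark matches on either strand to the GC box GGGCGG, the CCAAT box, the TATA box TATAAA, the SOX-type motif ACAAAG, an E-box of the form CAGCTG or of the form CAGATG, or the AP-1 motif TGANTCA. Aktip, which encodes a protein of vesicle transport (minus strand, chr8:91133978-91134277), Add3, which encodes an adducin of the membrane skeleton (plus strand, chr19:53142506-53142805), and Rfx1, which encodes a transcription factor (plus strand, chr8:84066586-84066885), are among the 5 internal starts of highest signal that lie wholly within their peak. Nfasc, which encodes an adhesion molecule of the axon-glia junction (minus strand, chr1:132707277-132707576), Bcan, which encodes the matrix proteoglycan brevican (minus strand, chr3:88000307-88000606), and Pde4b, which encodes a cyclic AMP phosphodiesterase (plus strand, chr4:102589593-102589892), come from the oligodendrocyte gene lists described further on.
Aktip: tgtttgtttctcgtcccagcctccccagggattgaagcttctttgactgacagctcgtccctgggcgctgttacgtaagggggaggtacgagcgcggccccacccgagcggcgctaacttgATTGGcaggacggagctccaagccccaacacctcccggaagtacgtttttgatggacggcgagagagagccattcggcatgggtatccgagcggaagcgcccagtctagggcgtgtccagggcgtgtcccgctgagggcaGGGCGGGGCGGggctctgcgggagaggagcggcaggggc
Add3: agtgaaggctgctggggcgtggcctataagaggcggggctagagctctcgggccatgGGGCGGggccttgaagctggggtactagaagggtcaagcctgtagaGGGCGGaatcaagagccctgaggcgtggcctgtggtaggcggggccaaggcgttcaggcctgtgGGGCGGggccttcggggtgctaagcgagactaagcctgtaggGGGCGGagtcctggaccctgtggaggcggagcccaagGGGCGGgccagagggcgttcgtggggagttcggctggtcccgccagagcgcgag
Rfx1: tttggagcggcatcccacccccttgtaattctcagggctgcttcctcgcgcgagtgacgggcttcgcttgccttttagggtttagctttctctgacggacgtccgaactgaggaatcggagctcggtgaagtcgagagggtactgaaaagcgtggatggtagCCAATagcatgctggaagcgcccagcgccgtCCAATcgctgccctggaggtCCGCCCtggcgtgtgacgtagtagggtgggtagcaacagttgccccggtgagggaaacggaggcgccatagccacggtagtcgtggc
Nfasc: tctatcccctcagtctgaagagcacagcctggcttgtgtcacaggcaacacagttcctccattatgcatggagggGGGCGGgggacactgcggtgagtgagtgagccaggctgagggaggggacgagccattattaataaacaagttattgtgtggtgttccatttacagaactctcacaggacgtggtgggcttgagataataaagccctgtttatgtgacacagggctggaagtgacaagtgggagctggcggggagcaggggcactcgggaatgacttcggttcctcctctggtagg
Bcan: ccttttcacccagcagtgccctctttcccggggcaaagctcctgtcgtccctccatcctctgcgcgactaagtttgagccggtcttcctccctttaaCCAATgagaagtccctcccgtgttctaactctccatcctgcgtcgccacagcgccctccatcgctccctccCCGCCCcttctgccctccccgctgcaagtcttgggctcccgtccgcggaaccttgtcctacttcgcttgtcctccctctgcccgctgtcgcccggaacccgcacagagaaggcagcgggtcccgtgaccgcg
Pde4b: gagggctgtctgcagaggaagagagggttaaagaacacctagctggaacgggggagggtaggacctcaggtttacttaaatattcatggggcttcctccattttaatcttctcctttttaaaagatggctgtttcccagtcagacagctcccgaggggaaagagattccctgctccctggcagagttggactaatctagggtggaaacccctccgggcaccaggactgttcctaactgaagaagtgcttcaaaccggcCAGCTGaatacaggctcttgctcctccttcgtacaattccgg

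The first 3 windows were GC-rich, with 65.0% and 26 CpG at Aktip, 68.3% and 20 CpG at Add3, and 60.3% and 25 CpG at Rfx1. The Add3 window held the GC box 5 times, Aktip held it 2 times and a CCAAT match once, and Rfx1 held it once with 2 CCAAT matches. The Nfasc window (54.3% GC, 7 CpG) and the Pde4b window (51.3% GC, 6 CpG) had fewer CpG than Bcan (64.0% GC, 24 CpG). At Aktip the peak had 123 fragments in Seh1cKO cells, 286 in control cells at day 1 and 204 at day 0, a Seh1cKO over control day 1 ratio of 0.72 per unit depth (95% counting interval 0.58 to 0.90). The Rfx1 peak had 120, 215 and 194 fragments and a ratio of 0.94 (0.75 to 1.18). The CpG-poor Nfasc start had the lowest ratio of these windows, 0.17 (0.084 to 0.32), with 11 fragments in Seh1cKO cells, 107 in control cells at day 1 and 44 at day 0. The Pde4b start had 12, 41 and 30 fragments and a ratio of 0.49 (0.24 to 0.96). The Bcan start, which was CpG-rich, had 22, 85 and 56 fragments and a ratio of 0.44 (0.26 to 0.70). Whether CpG content went with the ratio was not tested. Intervals here are exact, cover counting error only, and treat fragments as independent although duplicate fragments were kept.

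Median signal at the constant intragenic distal peaks was highest in control cells at day 1. The peaks were taken from that library and the pileup minimum was set in it alone, which leans levels in its favour. The median pileup in FPM was 1.48 in Seh1cKO cells, 2.08 in control cells at day 1 and 1.45 at day 0. At gene-end peaks it was 2.86, 2.79 and 2.01, so these had about the same level in both day 1 libraries. Peaks with no annotated start had 1.38, 1.97 and 1.41 FPM, and internal-start peaks 2.58, 2.46 and 1.92, close to the gene-end pattern. In fold enrichment over the local background, the authors' own ratio per peak, the medians of the intragenic distal peaks were 6.26 in Seh1cKO cells, 8.89 in control cells at day 1 and 7.26 at day 0.

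**Figure D1:**
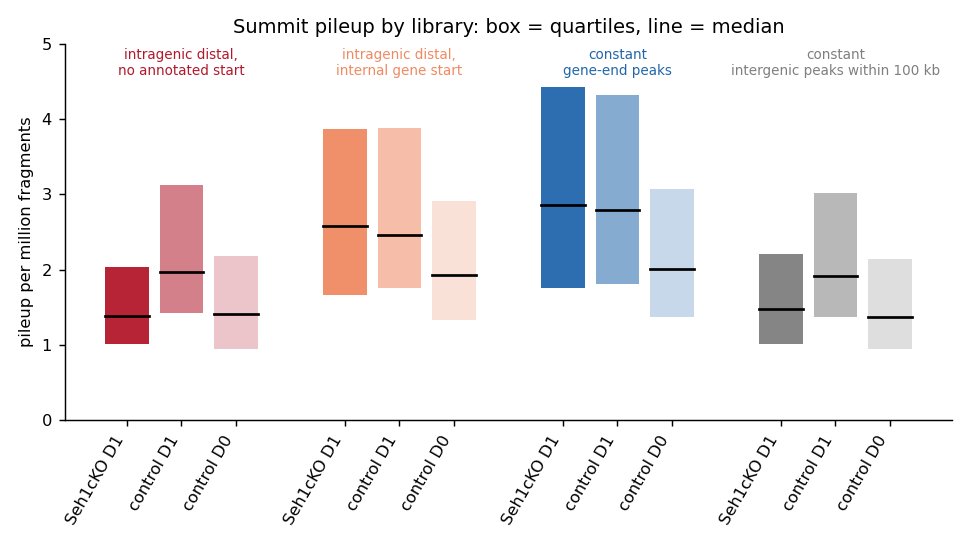
Summit pileup in FPM (y axis, fragments over the summit per 1000000 fragments) in the 3 libraries for 4 classes of constant peaks; boxes span the quartiles over peaks and lines are medians. In intragenic distal peaks with no annotated start the control day 1 library stood highest (median 1.97, against 1.38 in Seh1cKO cells and 1.41 at day 0), whereas at gene-end peaks both day 1 libraries lay close together (2.86 in Seh1cKO cells and 2.79 in control cells). In all 4 classes the pileup minimum was set in control cells at day 1 alone.

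For Seh1cKO cells against control cells at day 1, the question is how loss of Seh1 bears on open chromatin under T3. The median log2 ratio of pileup in FPM was -0.46 over the 9205 intragenic distal peaks (quartiles -0.89 and -0.06), a typical ratio of 0.73. It was -0.52 for the 7832 peaks with no annotated start and -0.06 for the 941 internal-start peaks. The same median was -0.02 at gene-end peaks, -0.40 at intergenic peaks within 100 kb, -0.49 at those beyond 100 kb and -0.25 over all constant peaks. Relative to all constant peaks, peaks with no annotated start therefore lay 0.27 lower and internal-start peaks 0.19 higher on the log2 scale. With pileup scaled to the median of all constant peaks, the median of peaks with no annotated start was -0.20, while those of internal-start peaks (0.26) and gene-end peaks (0.30) turned above 0. Signal in FPM was lower in Seh1cKO cells at 7162 peaks (77.8%), against 51.7% of gene-end peaks and 67.5% of all constant peaks. With that scaling it was lower at 5381 (58.5%), against 23.7% and 44.6%, and against 55.2% and 60.8% of intergenic peaks within and beyond 100 kb. At least 2-fold lower signal was found at 1896 intragenic distal peaks (20.6%), against a background of 13.0% of all constant peaks, and at least 2-fold higher signal at 47 (0.511%, background 0.915%). Because the choice of peaks used these libraries, nothing is read from those shares. Among peaks with no annotated start 23.0% were at least 2-fold lower, against 2.34% of internal-start peaks and 2.26% of gene-end peaks. The share was 17.3% at intergenic peaks within 100 kb and 22.4% beyond, so it was not particular to peaks inside genes.

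**Figure D2:**
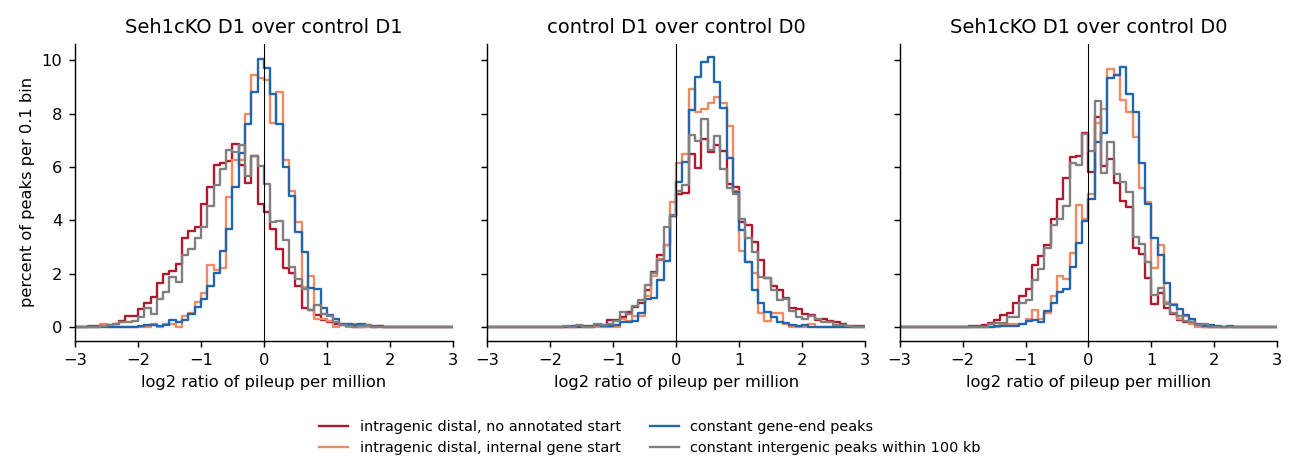
Distribution of log2 ratios of pileup in FPM (x axis) for 4 classes of constant peaks in each comparison; the y axis is the percent of peaks per bin of 0.1. In Seh1cKO over control cells at day 1 the peaks with no annotated start (median -0.52) and intergenic peaks (-0.40) lie left of internal-start (-0.06) and gene-end peaks (-0.02), while in control day 1 over day 0 all 4 classes centre near 0.5.

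Control cells at day 1 and control progenitors at day 0 differ by the first day of T3. PDGF-AA, bFGF and NT3 were withdrawn for the same day of culture, so hormone, withdrawal and time cannot be told apart. The median log2 ratio was 0.53 for intragenic distal peaks, 0.49 for gene-end peaks and 0.51 for all constant peaks, so the classes differed little in their centre. Scaled to the median of all constant peaks these medians were 0.07, 0.02 and 0.05, and with fold enrichment in place of pileup 0.24, 0.14 and 0.19. The spread over intragenic distal peaks was wider than at gene ends, with quartiles of 0.16 and 0.93, against 0.22 and 0.75. Intergenic peaks had a like spread, with 0.15 and 0.90 within 100 kb and 0.10 and 0.99 beyond. At least 2-fold higher signal at day 1 was found at 1964 intragenic distal peaks (21.3%, background 16.8%) and at least 2-fold lower signal at 47 (0.511%, background 0.435%). Seh1cKO cells at day 1 against control progenitors gave a median of 0.08, which turned to -0.19 with fold enrichment in place of pileup and to -0.066 with pileup scaled to the median of all constant peaks. In FPM 411 peaks were at least 2-fold higher (4.46%, background 6.75%) and 299 at least 2-fold lower (3.25%, background 1.87%). The median of that comparison was 0.03 for peaks with no annotated start, 0.41 for internal-start peaks and 0.48 for gene-end peaks. The first and second comparisons share the control day 1 library, and the pileup minimum was set in that library alone, which leans ratios in its favour. Control day 1 signal stood above both other libraries at 6366 intragenic distal peaks (69.2%), against 49.1% of gene-end peaks and 61.4% of all constant peaks. Within 2-fold in all 3 comparisons were 5983 intragenic distal peaks (65.0%), against 80.8% of gene-end peaks and 71.7% of all constant peaks.

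Peaks with no annotated start were also grouped by signal strength. At 1 to 2 FPM in control cells at day 1 their median log2 ratio of Seh1cKO over control was -0.30, at 2 to 4 it was -0.73, at 4 to 8 it was -0.95 and at 8 and over -0.90. Internal-start peaks had 0.01, -0.06, -0.12 and -0.13 in the same bins, and gene-end peaks 0.06, 0.01, -0.05 and -0.14. With fold enrichment in place of pileup the medians of peaks with no annotated start were -0.41, -0.62, -0.56 and -0.33 in these bins, so no trend with strength was kept, while internal-start peaks had -0.14, -0.14, -0.13 and -0.11 and gene-end peaks -0.10, -0.12, -0.13 and -0.13. Bins by control day 1 signal share that library with the ratio, and what this adds to the pileup medians was not tested. Distance from the gene end went with the ratio close to the end only: peaks with no annotated start had -0.32 at 1 to 5 kb, -0.54 at 5 to 20 kb, -0.57 at 20 to 100 kb and -0.56 beyond 100 kb.

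**Figure D3:**
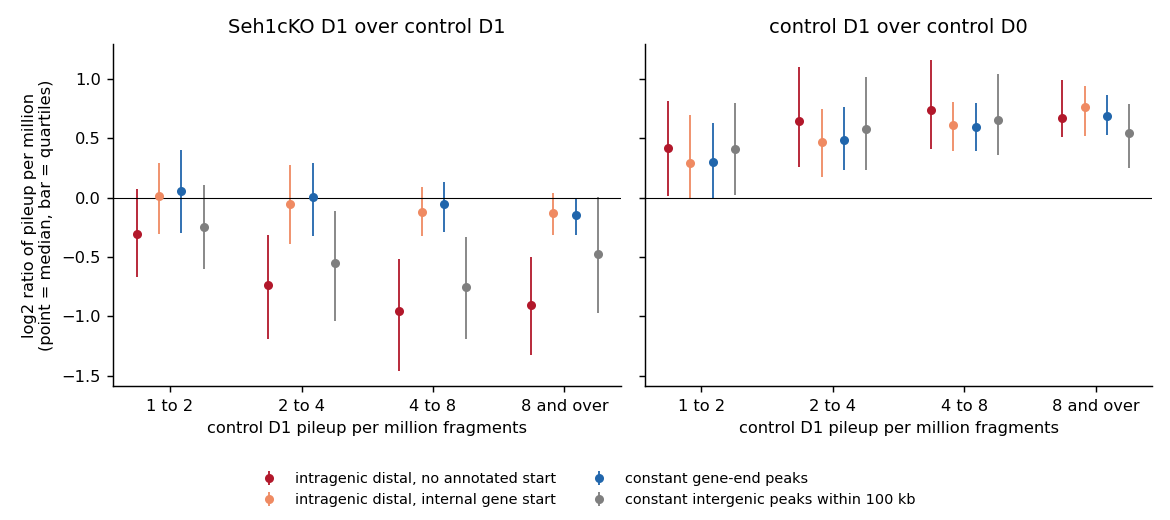
Median log2 ratio (points) and quartiles (bars) by control day 1 pileup in FPM (x axis) for 4 classes of constant peaks. At like signal, peaks with no annotated start lie below internal-start and gene-end peaks in Seh1cKO over control cells at day 1, with medians of -0.95, -0.12 and -0.05 at 4 to 8 FPM, and the classes overlap in control day 1 over day 0.

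Summit positions differed between libraries about as much as at all constant peaks. Measured from the control day 1 summit, the median shift was 51 bp in Seh1cKO cells and 52 bp at day 0, and 76.6% and 75.9% of summits lay within 100 bp, against medians of 51 and 52 bp and shares of 76.0% and 74.3% over all constant peaks. The intragenic distal peaks were narrower in Seh1cKO cells, with a median length of 372 bp, against 543 bp in control cells at day 1 and 504 bp at day 0, and the Seh1cKO peak was the shorter one at 81.9% of peaks. The Seh1cKO library had 59.4% of the control day 1 fragments, and the part of depth in peak length was not tested. A few peaks shared 1 partner: 76 of the 9205 did so in the Seh1cKO library and 116 at day 0.

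Along the gene, internal-start peaks crowded towards the 5′ side, whereas peaks with no annotated start were spread evenly. Strand was known for the hosts of 7192 peaks (78.1%). Of internal-start peaks 53.4% fell in the first of 4 equal parts of the gene and 4.52% in the last, while peaks with no annotated start had 23.8%, 25.8%, 25.9% and 24.5% in the 4 parts. Their median log2 ratio of Seh1cKO over control day 1 was alike in all 4, from -0.48 in the first to -0.57 in the last. The median distance to the nearest gene end was 23516 bp over all intragenic distal peaks, and 1450 (15.8%) lay more than 100 kb away.

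**Figure D4:**
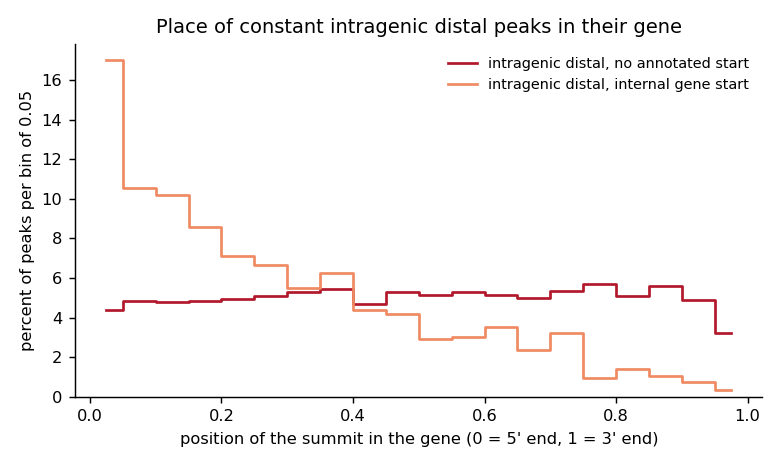
Place of the peak summit in its host gene, as a fraction of gene length from the 5′ end (x axis), and percent of peaks per bin of 0.05 (y axis). Internal-start peaks are densest at the 5′ end (53.4% in the first of 4 equal parts), and peaks with no annotated start are spread evenly (23.8% there).

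The peaks fell in 4568 of 18374 autosomal protein-coding genes longer than 2000 bp (24.9%). Of these hosts 2617 held 1 peak, 1541 held 2 to 4, 359 held 5 to 9 and 51 held 10 or more. Long genes held more: the share of genes that were hosts was 3.96% up to 10 kb, 18.7% up to 50 kb, 51.5% up to 200 kb and 86.0% above, but the density over all genes of a class was 11.7, 10.7, 10.7 and 8.41 peaks per Mb. Across hosts the number of peaks and gene length had a Spearman correlation of 0.55, which is a description across genes.

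Gse1, which encodes a subunit of a histone deacetylase complex (chr8:120228501-120581383), held the most peaks, 20. Pde4d, a cyclic AMP phosphodiesterase gene, held 18, and Nav2, a cytoskeletal regulator, and Nrxn3, a synaptic neurexin, held 15 each. Fyn, the Src-family kinase that acts in oligodendrocyte differentiation, the endosomal membrane protein gene Tmem108, the guanine nucleotide exchange factor gene Trio, the Arf exchange factor gene Iqsec1, the transcription factor genes Nfia and Sox5, and the vesicle phosphatase-like gene Ptprn2 held 14 each. The matrix gene Tnr (tenascin-R), the receptor phosphatase gene Ptprg, the adhesion gene Opcml and the membrane protein gene Csmd1 held 13 each. These genes ran in length from 195639 bp for Fyn to 1642848 bp for Csmd1. Fyn was thus the densest of them, with 7.16 peaks per 100 kb, and Csmd1 the sparsest, with 0.79.

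All 15 of these hosts had a median log2 ratio of Seh1cKO over control day 1 below 0, from -1.12 at Trio to -0.16 at Nfia. When pileup was scaled to the median of all constant peaks, which moves this ratio by 0.32, Gse1 (0.13), Nfia (0.16) and Ptprn2 (0.16) turned above 0 and the other 12 stayed below. The 14 Trio peaks ranged from -1.80 to 0.24, and the 13 Tnr peaks, with a median of -1.03, from -2.09 to 0.50. At Nfia the 14 peaks ran from -0.95 to 1.34 with values on both sides of 0, and at Gse1 from -1.45 to 0.46. Among all 115 hosts of 8 or more peaks the median was below 0 in 115, in 91 with that scaling and in 115 with fold enrichment in place of pileup. The lowest in FPM, chosen after their values were seen, were Tns3 (tensin, -1.16), Trio, Sema5b (semaphorin, -1.12) and Celf2 (RNA-binding protein, -1.06), and the highest Maml3 (Notch coactivator, -0.01) and Tenm4 (teneurin, -0.04). With fold enrichment this order was not kept. Tns3 then had -0.50, Trio -0.53, Sema5b -0.31, Celf2 -0.93 and Tnr -0.33, against -0.46 over all intragenic distal peaks. For control day 1 over day 0 the gene median was below 0 in 2 of the 115. It was below 0 in 44 when scaled to the median of all constant peaks and in 9 with fold enrichment.

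**Figure D5:**
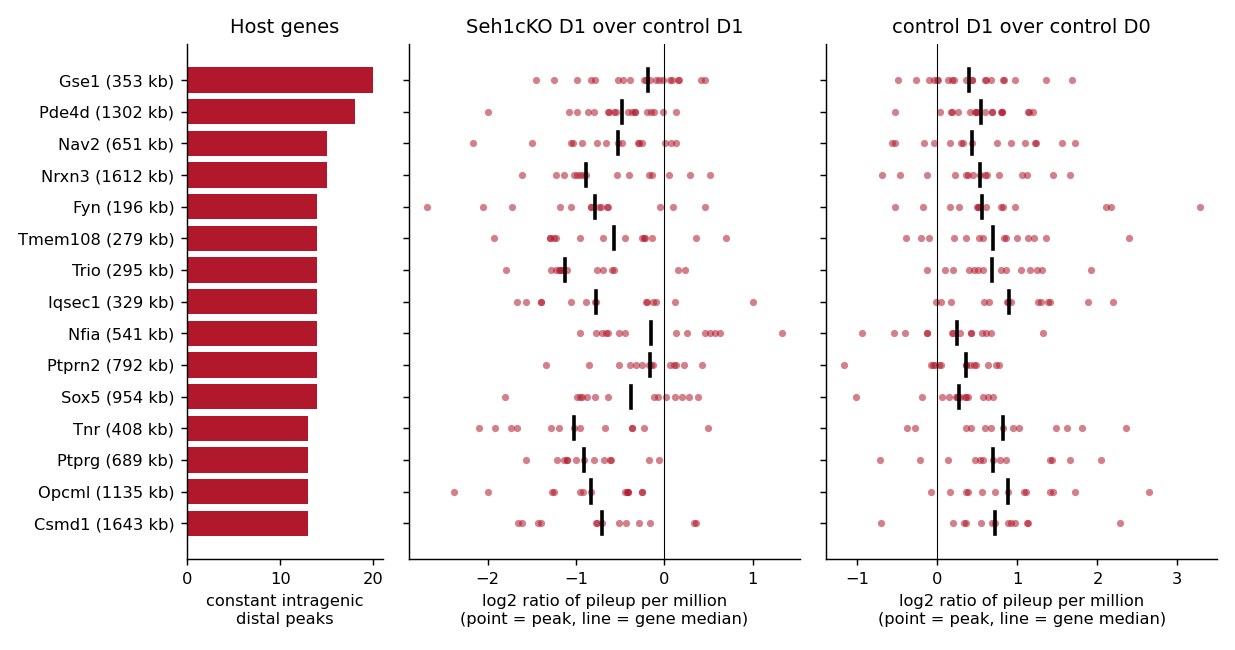
The 15 host genes with most constant intragenic distal peaks: number of peaks (left), and the log2 ratio of each peak (points) with the gene median (line) for Seh1cKO over control cells at day 1 and for control day 1 over day 0. Gene medians lie between -1.12 (Trio) and -0.16 (Nfia) in Seh1cKO over control cells in FPM, with Gse1, Nfia and Ptprn2 above 0 once scaled to all constant peaks, and within most genes single peaks fall on both sides of 0.

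Ranked by density among hosts of 4 or more peaks, smaller genes came first. Kdm6b, a histone demethylase gene of 21860 bp, held 5 peaks (22.9 per 100 kb), Cspg5, a brain proteoglycan gene, 4 (21.3), and Ubtf, which encodes a factor of ribosomal RNA transcription, 4 (21.0). The others of the first 10 were Fcho1 (endocytosis, 19.1), Ctdsp2 (a phosphatase, 18.8), Chst3 (a chondroitin sulfotransferase, 14.8), Syt11 (a synaptotagmin, 13.1), Adgrg1 (an adhesion receptor of progenitors, 12.7), Csrp1 (a LIM protein, 12.4) and Cxxc5 (a zinc finger protein, 12.4). Kdm6b had a median log2 ratio of -0.22 for Seh1cKO over control day 1 and 0.99 for control day 1 over day 0. Ubtf, with internal starts under 3 of its 4 peaks, had 0.17 and 0.57. Chst3, with 5 of 6 peaks free of starts, had -0.70 and 0.64. The 6 Chst3 peaks lay close together, within chr10:60193580-60219369, with no gap above 10 kb.

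The 6 peaks with the lowest ratios of Seh1cKO over control day 1 and the 6 with the highest all overlapped no annotated start, as did 85.1% of the intragenic distal peaks. The lowest ratio was in Chn2, a Rac-inactivating chimaerin (chr6:54183683-54184798), with 7 fragments in Seh1cKO cells, 83 in control cells at day 1 and 16 at day 0, a ratio of 0.14 (0.055 to 0.31). Abca13 (a lipid transporter) had 8, 90 and 32 fragments, and Nrp1 (neuropilin, a semaphorin receptor) had 9, 99 and 10. In these peaks the Seh1cKO and day 0 libraries were low and the control day 1 library stood alone. The Fyn peak at chr10:39421632-39422764 had 16 fragments in Seh1cKO cells, 174 in control cells at day 1 and 23 at day 0, a ratio of 0.15 (0.087 to 0.26) in the first comparison and 9.70 (6.26 to 15.7) for control day 1 over day 0. Arpp21, a neuronal RNA-binding phosphoprotein gene, had 7, 72 and 28 fragments, and Klhl25, an adaptor of ubiquitin ligases, had 10, 101 and 31. The largest control day 1 over day 0 ratio, 14.3 (8.26 to 26.7), was in Kifbp, which encodes a kinesin-binding protein, with 20 fragments in Seh1cKO cells, 156 in control cells at day 1 and 14 at day 0. Slc4a8 (bicarbonate transport) had 16, 131 and 14 fragments, Jakmip1 (microtubule binding) 10, 86 and 13, and Astn2 (astrotactin) 29, 118 and 18. These peaks were picked as extremes out of 9205, which the counting intervals do not cover.

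At the other end, the 6 highest ratios of Seh1cKO over control day 1 lay in weak control day 1 peaks of 19 to 32 fragments. The highest was the peak shared by Has1, a hyaluronan synthase gene, and Spaca6, a sperm protein gene (chr17:17837672-17837891), with 53 fragments in Seh1cKO cells, 19 in control cells at day 1 and 115 at day 0, a ratio of 4.70 (2.73 to 8.40). It was also the lowest for control day 1 over day 0, at 0.21 (0.12 to 0.35). Tef, a circadian transcription factor gene, had the same shape with 64, 29 and 122 fragments. For these the day 0 library and the Seh1cKO library were both above control day 1. Irs1, which encodes the insulin receptor substrate, had 64, 32 and 79 fragments, Dlgap4 (a synaptic scaffold) 48, 25 and 55, Ppp1cc (a protein phosphatase subunit) 41, 19 and 34, and Kifc3 (a kinesin) 53, 29 and 29. Low control day 1 over day 0 ratios were also seen in Pcdh9 (0.25), Pstpip2 (0.25), Maml2 (0.29) and Srrm2 (0.30). In these the day 0 partner was longer, at 841 to 1368 bp, against 101 to 716 bp in control cells at day 1. At the 6 highest Seh1cKO ratios the Seh1cKO partner measured 698 to 1607 bp, against 122 to 449 bp in control cells at day 1. A peak was thus set beside the summit of a longer one, and what this adds to the ratios was not tested. Since the minimum was set in control day 1, peaks that are weak there can only just enter the choice.

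The 10 strongest peaks fell in 6 places of the genome. The highest was in Chl1, an adhesion gene (chr6:103649048-103649295), with 3108 fragments in Seh1cKO cells, 12632 in control cells at day 1 and 17260 at day 0, or 287, 692 and 737 FPM. Another 5 lay side by side in Myo3a, a myosin gene, within chr2:22587741-22590189, at 127 to 514 FPM in control cells at day 1. Their fold enrichment over the local background was only 2.47 to 10.0 in that library, against 47.0 at Chl1. In Seh1cKO cells fold enrichment was 45.5 at Chl1 and 2.49 to 11.3 in Myo3a, so these peaks were not uniformly lower on that scale. The Myo3a peaks had Seh1cKO over control day 1 ratios of pileup in FPM of 0.37 to 0.67, and 2 of them shared 1 Seh1cKO peak. The peak shared by Cmss1 and Filip1l (496, 590 and 723 fragments), the Zc3h7a peak (560, 580 and 628) and the Cdk8 peak (401, 483 and 668) were higher per unit depth in Seh1cKO cells, with ratios of 1.42 (1.25 to 1.60), 1.63 (1.44 to 1.83) and 1.40 (1.22 to 1.60). In fold enrichment these 3 peaks were slightly lower in Seh1cKO cells, with 26.4 against 27.4 in control cells at day 1, 28.4 against 29.3, and 24.99 against 26.7. Pcmtd1 had 158, 317 and 209 fragments and a ratio of 0.84 (0.69 to 1.02). In control cells at day 1 the 10 peaks had 17.4 to 692 FPM, against a median of 2.08 over all intragenic distal peaks. Whether signal this high is an artefact was not tested. It is therefore not read as open chromatin of the named genes, nor are its ratios read as differences between genotypes.

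Gene lists put names to the pattern, and they are read beside all intragenic distal peaks. Over those the median log2 ratio of Seh1cKO over control day 1 was -0.46. Signal was lower in Seh1cKO cells at 77.8% of them and at least 2-fold lower at 20.6% (background 13.0% of all constant peaks). Over all genes considered 24.9% were hosts, and this share rose with gene length. Nothing is therefore read from the host counts of the lists. Among 38 myelin and mature oligodendrocyte genes, 19 were hosts of 54 peaks with a median of -0.78. Signal was lower in Seh1cKO cells at 49 of these 54. Scaled to the median of all constant peaks it was lower at 43 (79.6%), against 58.5% of all intragenic distal peaks and 44.6% of all constant peaks. In FPM it was at least 2-fold lower at 21 (38.9%, against 20.6% of all intragenic distal peaks). The median for control day 1 over day 0 was 0.72, against 0.53 over all intragenic distal peaks. At least 2-fold higher at day 1 were 18 of the 54, against 21.3% of all intragenic distal peaks and 16.8% of all constant peaks. Sirt2, a deacetylase gene expressed in myelinating cells, had 3 peaks, of which 2 stood alone in control cells at day 1: 1 with 14 fragments in Seh1cKO cells, 103 in control cells at day 1 and 26 at day 0, and 1 with 13, 88 and 22. The third had 28, 62 and 58 fragments. Mbp, the gene of myelin basic protein, held 6 peaks with a median of -0.88, the strongest at chr18:82557218-82557650 with 21, 81 and 47 fragments. The 3 Nfasc peaks had 11, 46 and 23, 11, 107 and 44, and 14, 82 and 30 fragments, so all 3 were highest in control cells at day 1. Prr5l, of the mTOR complex, had 4 peaks with a median of -0.94 and its strongest with 23, 104 and 69 fragments. Pde4b held 10 peaks with a median of -0.75, from -1.65 to 0.37.

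Among 32 progenitor genes 27 were hosts of 160 peaks, with a median log2 ratio of -0.66 for Seh1cKO over control day 1 and 0.52 for control day 1 over day 0. With fold enrichment in place of pileup the first median was -0.41, above the -0.46 of all intragenic distal peaks on that scale. Signal in FPM was lower in Seh1cKO cells at 134 of the 160 and at least 2-fold lower at 45 (28.1%, against 20.6% of all intragenic distal peaks). Scaled to the median of all constant peaks it was lower at 107 (66.9%). That share was 58.5% over all intragenic distal peaks and 62.5% over those with no annotated start. The Tnr peak at chr1:159587734-159588652 had 26 fragments in Seh1cKO cells, 165 in control cells at day 1 and 76 at day 0, a ratio of 0.27 (0.17 to 0.40). The strongest Opcml peak had 26, 106 and 63 fragments and the strongest Csmd1 peak 36, 159 and 108. Pdgfra, which encodes the receptor for the mitogen PDGF-AA, held 1 peak with 35, 124 and 111 fragments. The 14 Fyn peaks differed among themselves: 4 of them, besides the extreme one, were lower by 1 or more on the log2 scale in Seh1cKO cells than in control cells at day 1, while the peaks at chr10:39541149-39541735 (22, 27 and 50 fragments) and chr10:39552054-39552809 (28, 44 and 47) were higher per unit depth in Seh1cKO cells than in control cells at day 1.

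Lineage regulators are transcription factors and their inhibitors that act in the fate of these cells. Of 30 such genes 16 were hosts of 85 peaks, with a median of -0.43 for Seh1cKO over control day 1 and 0.32 for control day 1 over day 0, and 11 peaks (12.9%, against 20.6% of all intragenic distal peaks and 13.0% of all constant peaks) were at least 2-fold lower in Seh1cKO cells. The strongest Nfia peak had 49 fragments in Seh1cKO cells, 75 in control cells at day 1 and 105 at day 0, a ratio of 1.10 (0.75 to 1.60). The strongest Sox5 peak had 49, 164 and 165 fragments with a ratio of 0.50 (0.36 to 0.70), and that of Sox6, a second SoxD factor, had 21, 98 and 65 with 0.36 (0.21 to 0.58). Zbtb20 had 16, 73 and 44. Myrf, the master factor of myelin gene expression, held 1 peak with 12 fragments in Seh1cKO cells, 56 in control cells at day 1 and 32 at day 0. Tcf7l2, an effector of Wnt signalling in differentiating cells, held 3, of which the peak with 19, 24 and 38 fragments was higher per unit depth in Seh1cKO cells than in control cells at day 1. Myrf, Tcf7l2 and Pdgfra were named after their values were seen.

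The receptors of thyroid hormone were of interest because T3 was the stimulus. Among 13 thyroid hormone genes 6 were hosts of 17 peaks, with a median of -0.42 for Seh1cKO over control day 1. The strongest Thrb peak (chr14:17927608-17928088) had 15 fragments in Seh1cKO cells, 92 in control cells at day 1 and 20 at day 0, a ratio of 0.27 (0.15 to 0.48) and, for control day 1 over day 0, of 5.90 (3.61 to 10.1). The other Thrb peaks had 21, 54 and 23 fragments and 16, 36 and 49. The 1 Thra peak had 30, 111 and 50, with ratios of 0.46 (0.29 to 0.69) and 2.85 (2.02 to 4.06). Rxra, the gene of a partner receptor, held 3 peaks with a median of -0.29. Growth factor receptor genes held 44 peaks in 13 of 19 genes with a median of -0.35. Among them the strongest Erbb4 peak had 8, 58 and 29 fragments, with a ratio of 0.23 (0.096 to 0.49), and the strongest Igf1r peak had 47, 93 and 75, with 0.85 (0.59 to 1.22).

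Cell adhesion and synaptic genes, most of them very long, were all hosts: 29 of 29 held 190 peaks, with a median of -0.57 for Seh1cKO over control day 1, and Cadm2 held 12 peaks (median -0.75) and Cdh13 held 11 (-0.29). Markers of other cell types also held constant intragenic distal peaks: 13 of 20 astrocyte genes with 33 peaks (median -0.28), 10 of 24 neuronal genes with 26 (-0.40), 5 of 21 microglial genes with 7 (-0.47) and 6 of 23 endothelial and mural genes with 8 (-0.37). Some genes stood in more than 1 list: Cspg4, also in the progenitor list, held 2 of the 8 endothelial and mural peaks. Of 24 housekeeping genes, whose median length was 6880 bp, 2 were hosts of 3 peaks (-0.10). With fold enrichment in place of pileup the medians were -0.62 for myelin genes, -0.55 for adhesion genes, -0.47 for growth factor receptor genes, -0.37 for lineage regulators, -0.33 for thyroid hormone genes and 0.0070 for housekeeping genes. On that scale microglial genes, with 7 peaks, had -0.65, below myelin genes. Neuronal genes had -0.43, astrocyte genes -0.41 and endothelial and mural genes -0.17, against -0.46 over all intragenic distal peaks. Scaling to the median of all constant peaks gave -0.46 for myelin genes, -0.34 for progenitor genes, -0.25 for adhesion genes, -0.11 for lineage regulators, -0.10 for thyroid hormone genes and -0.03 for growth factor receptor genes. With that scaling the astrocyte median turned to 0.04 and the housekeeping median to 0.22. The microglial median was then -0.15, the neuronal -0.08 and the endothelial and mural -0.05. No list was tested, since each group has 1 library.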

How the data were processed

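Each of the 3 libraries has 1 deposited peak table. The submitters' processing notes name mm10 as the build and list MACS2, SAMtools and Bowtie2. MACS 2.1.2_dev was run on the paired-end fragments of each library alone, keeping all duplicates, with no control library, per the file headers. The headers give 0.05 as the q cutoff, 50 bp as the largest gap, 100 bp as the shortest peak, 10000 bp as the range of the local background and 1.87e+09 as the effective genome size. The deposited values are the pileup signal at the summit, the −log10 of the p-value and of the q-value, and the fold enrichment as a ratio to local background, per the file headers. Names of both −log10 columns are damaged in the deposited tables, and they were read by the caller's fixed column order. Read shifting and removal of artefact regions are not given in the sources used here.

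Pileup was divided by the fragments in the header and given per 1000000 (FPM), and a peak was compared with the overlapping peak of highest pileup in each other library. Gene positions, for 21887 protein-coding genes, and start windows came from RefSeq GRCm38.p6; 79.9% of these genes had a window, and none of those on chromosome 18, which holds 328 of the peaks. Genes that a peak lies in were counted each. With 1 library per group there is no test. Ratios of single peaks have exact (conditional binomial) intervals at 95%. Medians cover peaks, which are not replicates. Python 3.11.15, numpy 2.4.6, pandas 2.3.3, scipy 1.17.1 and matplotlib 3.10.9 were used, and overlap and ratio code was tested on simulated data.

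Genes were named by rule: the 15 hosts with most peaks, the 10 densest hosts of 4 or more peaks, the 10 strongest peaks, the 6 peaks at each end of the ratios for Seh1cKO over control day 1 and control day 1 over day 0, and up to 4 hosts per list. A few genes that the rule names are not reported here. The peaks, lists and rule were chosen with earlier results of these data known. The planned motif and GC analysis around summits needed a genome sequence, which was not used here; start windows took its place and were chosen after seeing the data. Alternatives changed the minimum, overlap, gene ends, lengths, anchor library, q threshold, partner and scaling.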

Additional observations from a re-analysis of the deposited data

How the results depend on the processing

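The number of constant intragenic distal peaks and of hosts, the 3 median log2 ratios and the difference in the median of Seh1cKO over control day 1 between peaks with no annotated start and gene-end peaks (-0.51) were recomputed under the alternatives. With a minimum of 2 FPM there were 4760 peaks in 3012 hosts, and medians of -0.67 (Seh1cKO over control day 1), 0.65 (control day 1 over day 0) and 0.010 (Seh1cKO over day 0), and the difference between classes was -0.76. With 0.5 FPM these were -0.30, 0.42, 0.11 and -0.35. Anchored on Seh1cKO peaks they were -0.25, 0.43, 0.16 and -0.30, and anchored on day 0 peaks -0.36, 0.36, -0.074 and -0.44. When each library's peak had to reach a −log10 q of 5 they were -0.32, 0.47, 0.11 and -0.41. At 5000 bp from gene ends the first and last medians were -0.51 and 0.039. With fold enrichment in place of pileup control day 1 over day 0 gave 0.24, Seh1cKO over day 0 -0.19 and the difference -0.38. Scaled to the median of all constant peaks the medians were -0.14, 0.070 and -0.066. Seh1cKO over day 0 thus changed sign under 3 alternatives, while the class difference stayed between -0.76 and -0.30 in all that were run, and the cause was not tested. Leaving out the 10 strongest peaks or peaks that share a partner, and the class difference itself, were chosen after seeing the data. Under both removals the medians stayed within their 95% intervals over peaks.

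No paired analysis was possible because each group has 1 library and the labels carry no replicate numbers; likewise, no fit without 1 of the libraries exists. Depth limits what can be called in the Seh1cKO library, whose weakest peaks rest on 6 fragments, and peaks lost there are outside the choice. The library difference and the genotype cannot be told apart. Duplicate fragments were kept, and their part in any pileup was not tested.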

Other observations

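Some constant intragenic distal peaks overlapped microRNA genes or clustered tightly. Peaks overlapped the hairpins of 9 annotated microRNAs, among them Mir128-2 in Arpp21, with 2.46 FPM in control cells at day 1 and a log2 ratio of Seh1cKO over control day 1 of -0.28. Mir6540 in Gap43, the gene of a growth cone protein, had 4.60 FPM and -1.47, and Mir6546 in Fcgr3, an immunoglobulin receptor gene, had 1.81 FPM and 0.96.

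Of 9186 gaps between neighbouring peaks on a chromosome 1272 (13.8%) were at most 10 kb, and 178 groups held 3 or more peaks. The largest held 8 peaks within 47188 bp of Iqsec1, with a median log2 ratio of -0.55 for Seh1cKO over control day 1 and 0.90 for control day 1 over day 0. A group of 6 peaks within 16530 bp of Ptch1, the Hedgehog receptor gene, had -0.25 and 0.50. One peak lay in as many as 24 annotated genes at once, and 94 peaks lay in 2 or more.

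Hosts and other genes of like length had a constant gene-end peak about as often: among genes of 50 to 200 kb, 1259 of 1946 hosts (64.7%) had one, against 1154 of 1834 genes without an intragenic distal peak (62.9%). Among genes of over 200 kb it was 569 of 813 hosts (70.0%), against 82 of 132 (62.1%).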
